A study of Rattus norvegicus with 32 samples.

Results

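The choline main effect was the difference in hippocampal transcript levels between adult rats whose dams had received extra choline and rats whose dams had not, taken over both sequencing batches and both iron diets. All 32 libraries of the series entered it, 16 from supplemented rats (ISch and IDch) and 16 from the others (IS and ID), and the model also held a term for batch and a term for iron. The libraries were chosen by their diet labels alone. Each gene was then looked up in the males and in the females separately, to see whether the sign of its choline difference was the same in both.

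The tissue was hippocampus of Sprague-Dawley rats at 65 days of age, with 4 rats in each of 8 groups. IS rats were iron sufficient throughout, ISch rats were iron sufficient with added choline, ID rats were born to dams on an iron-deficient diet, and IDch rats had the iron-deficient diet and added choline. The study's methods describe choline given to the dam in the second part of gestation and iron repletion from the first postnatal week on, so no rat was on a choline-enriched or iron-deficient diet when its tissue was taken. They describe 1 male per litter, and give nothing on the litters of the females. All 16 males were sequenced in batch I and all 16 females in batch II. Sex and batch therefore cannot be told apart, and every difference between the sexes below is also a difference between the batches. In bulk tissue, fewer cells of a type and less RNA per cell cannot be told apart.

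Choline is an essential nutrient with several fates. It is phosphorylated and built into phosphatidylcholine, the main phospholipid of cell membranes, it is acetylated to the transmitter acetylcholine, and it is oxidized to betaine, which passes a methyl group to homocysteine and so feeds the synthesis of S-adenosylmethionine, the methyl donor for DNA and histone methylation. The question behind the comparison is whether choline given before birth leaves a lasting trace on hippocampal gene expression.

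Some libraries stood apart. The males were sequenced less deeply than the females, with 3515806 to 9517503 counted reads against 18439999 to 26616318, so that 3 counts were worth 0.32 to 0.85 CPM (counts scaled to the library total) in a male and 0.11 to 0.16 CPM in a female. In the labels, 3 male libraries carried names of another form than the rest. They were ISch replicates 1 and 2 and IDch replicate 2, all from supplemented rats, and what the form stands for is not given in the sources used here. On the first principal component of the males they lay at 18.2, 16.3 and 39.1, above the range of the other 13 males (-28.2 to 4.6). Male ID replicate 4 had 431 CPM summed over the 12 choroid plexus markers, and the other 31 libraries had 5.7 to 22.6 CPM. Markers of hippocampal neurons were present in every library, with summed levels of 300 to 474 CPM for the dentate gyrus, 514 to 1145 CPM for CA1 and 333 to 450 CPM for CA2 and CA3.

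The supplemented females fell into 2 sets that also differed in their labels. ISch replicate 1 and IDch replicates 1 to 3 carried high numbers in their names (ISCh17, IDCh16, IDCh17 and IDCh18), while the other 4 supplemented females and all 8 females without added choline carried low ones. What the numbers stand for is not given in the sources used here. On the second principal component of the females (10.9% of the variance) the 4 rats with high numbers lay at -24.2 to -12.1 and the other 4 supplemented rats at 3.8 to 21.9. Markers of CA1 summed to 514 to 769 CPM in the first 4 and to 950 to 1145 CPM in the other 4, and blood markers to 99 to 153 CPM and 191 to 320 CPM. Results in females are therefore also given below without each set, a split chosen after seeing the data. Each such fit compared 4 supplemented with 8 other females, and both used the same 8. The high-numbered set held 1 ISch rat and 3 IDch rats, and the low-numbered set 3 ISch rats and 1 IDch rat. The split was therefore unbalanced over the iron diets.

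Over both sexes, 819 of 15070 genes tested (5.43%) differed with choline at the criterion of the study (a log2 fold change beyond 0.2 in either direction, with an unadjusted p under 0.05), and such genes are called below. Of these, 428 rose (2.84%) and 391 fell (2.59%). After Benjamini-Hochberg adjustment of edgeR's quasi-likelihood p, 234 genes (1.55%) had an adjusted p under 0.05, 133 of them higher and 101 lower. In the same model the iron term met the criterion for 262 genes (1.74%) and had no gene at an adjusted p under 0.05 in edgeR, with 655 at an unadjusted p under 0.05, against 2234 for choline. The choline differences were mostly small. Among the 819 genes the median change was 1.28-fold, 638 changed by less than 1.5-fold and 74 by more than 2-fold. Genes called for choline had a median level of 1.97 log2 CPM, below the 4.36 log2 CPM of all genes tested. The count of 234 became 448 without the 3 male libraries named above, with 204 genes in both lists (87.2% of the first and 45.5% of the second). It became 132 without female ID replicate 1 and 149 without female ID replicate 2. It was 219 without the 4 supplemented females with high numbers and 122 without the 4 with low numbers.

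More genes were called in the females than in the males. Tested alone, 8 supplemented against 8 other rats, the females had 1747 genes at the criterion (11.9% of 14732), of which 794 rose and 953 fell, and 1277 at an adjusted p under 0.05 (8.67%). The males had 885 genes at the criterion (6.28% of 14084), of which 491 rose (3.49%) and 394 fell, and 117 at an adjusted p under 0.05 (0.831%). Without the 3 male libraries the latter were 59, from 5 against 8 rats, and without ISch replicate 2 alone they were 76. Depth also differed between the sexes, and with the female counts thinned to the male median total 798 female genes had an adjusted p under 0.05. The female count of 1277 was 2051 without the supplemented females with high numbers, 913 of them shared with the 1277, and 702 without those with low numbers, 476 of them shared. In the females the first principal component (18.3% of the variance) separated the diets, at -22.0 to -7.1 in the 8 rats without added choline and 4.3 to 24 in the 8 supplemented rats. In the males it did not, at -28.2 to 4.0 and -5.9 to 39.1. The 8 supplemented and 8 other rats did not overlap for 194 genes in the females (1.32%) and for 57 genes in the males (0.405%).

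With all 32 libraries, fewer genes kept their sign from males to females than changed it. Values that are unrelated would share about as many signs as not. Of 13652 genes tested in all 3 fits, 6049 (44.3%) had the same sign in both sexes, and across genes the male and female log2 fold changes had a Spearman's rho of -0.16 and a Pearson's r of -0.12. These 2 sets of values come from separate libraries, and genes are not independent of each other. Of the 811 genes called in males and tested in females, 316 (39%) kept their sign. Of the 1580 called in females and tested in males, 571 (36.1%) did. At the criterion 173 genes were called in both sexes, 21.3% of the male and 10.9% of the female list, and 45 of these moved the same way while 128 moved in opposite directions. Most of this pattern went with the 3 male libraries: without them 48.9% of genes had the same sign, rho was -0.04 and r was 0.01. The male and female values were then nearly unrelated across genes, rather than opposed. Without these libraries 48.3% of the genes called in males and 46.7% of those called in females kept their sign.

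Among the 819 genes of the joint list, 605 were tested in both sexes, 159 were below the filter on low counts in males and 86 in females. Of the 605, 465 (76.9%) had the same sign in both, namely 263 of the 328 higher genes and 202 of the 277 lower ones. Among the genes with an adjusted p under 0.05 it was 186 of 193 (96.4%). A joint call needs an average difference over both sexes, so it favours genes of 1 sign, and these shares describe the list without testing it. Of the 605 genes, 406 also met the criterion in the females only, 101 in the males only, 51 in both and 47 in neither.

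**Figure D1:**
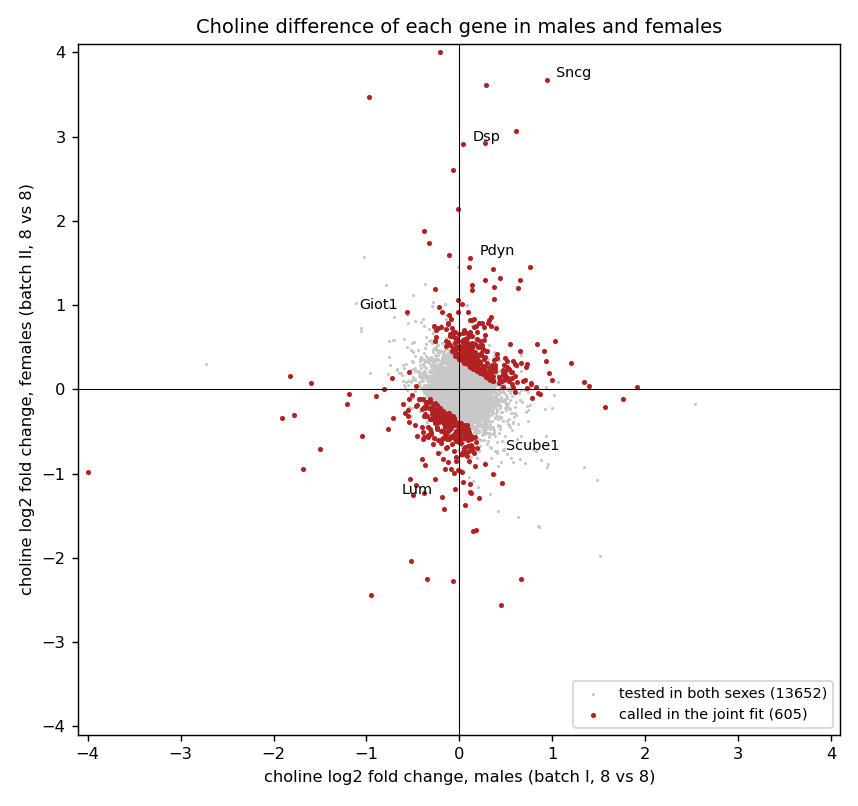
Choline log2 fold change of each gene in males (horizontal axis) and females (vertical axis), each 8 against 8 rats, with values beyond 4 drawn at 4. Grey points are the 13652 genes tested in both sexes and red points the 605 of them called in the joint fit, which lie along the female axis more than along the male axis.

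The difference itself was tested with a term for choline by batch. At the criterion 2372 of 15164 genes (15.6%) differed between females and males in their choline response, and 922 (6.08%) at an adjusted p under 0.05. Without the 3 male libraries 336 genes remained at that threshold. By contrast the choline difference in iron-sufficient and formerly iron-deficient rats differed for 1030 genes at the criterion (6.79%), of which 406 (2.68%) were more positive and 624 (4.12%) more negative after iron deficiency, and for none at an adjusted p under 0.05 in edgeR's quasi-likelihood test, with 1531 at an unadjusted p under 0.05. DESeq2 called 12 such genes and edgeR's likelihood ratio test 9, and the quasi-likelihood test called 13 without the supplemented females with low numbers. That last fit kept only ISch replicate 1 and IDch replicates 1 to 3 as supplemented females. It was unbalanced over iron, so its count cannot be read as a difference between the iron diets.

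The choline difference was also taken in 4 strata of sex and iron diet, 4 against 4 rats each. At an adjusted p under 0.05 in edgeR there were 50 genes in iron-sufficient males and 647 in formerly iron-deficient males. The female strata had 393 and 640 such genes, so the lowest count was that of the iron-sufficient males. That stratum held ISch replicates 1 and 2 of the differently named libraries. The other male stratum held IDch replicate 2 and ID replicate 4. These counts were not taken again without those libraries, and the high-numbered females were unevenly spread over the female strata. The part of the iron diet in these counts was therefore not tested. Iron-sufficient and formerly iron-deficient females shared the sign of 61.7% of 15520 genes, with a Spearman's rho of 0.32 across genes. The corresponding male strata shared 47.6% with a rho of -0.00. Between a male and a female stratum the shared signs ran from 42.1% to 51.1%. All 4 strata had the same sign for 11.5% of all genes and for 381 of the 819 joint calls (46.5%). No library is in more than 1 stratum.

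The genes named here had 1 sign in both sexes and a symbol held by 1 entry. Among them, the 12 that rose with the smallest p in the joint fit were Agfg2, Mt-atp8, Auts2, Cfap70, Rpl12, Pdyn, Ddo, Sncg, Cfp, Dsp, Gsta4 and Serpinh1. The 12 that fell were Borcs5, Thoc3, Kiss1r, Grm4, Lyz2, Tomm70, Rbm11, Lum, Pxmp4, Phgdh, Rhbdl3 and Sla. All 24 had an adjusted p under 0.05 in the joint fit. Without the supplemented females with high numbers 22 of the 24 did, the exceptions being Gsta4 (0.057) and Sla (0.105). Without those with low numbers 17 did, the exceptions being Cfp, Serpinh1, Rbm11, Lum, Pxmp4, Phgdh and Rhbdl3, at 0.0603 to 0.131. Some of them differed by about the same amount in males and females, while others differed in females and little in males.

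Among the genes named above, Agfg2, which encodes an ArfGAP-domain protein, had the smallest joint p, and it rose in both sexes. In males it was at 37.5, 44.4 and 46.8 CPM (lowest, median and highest) in the 8 rats without added choline and at 46.2, 51.9 and 61.6 CPM in the 8 supplemented rats. In females it was at 61.0, 65.0 and 71.9 CPM and at 65.4, 73.9 and 85.9 CPM. The ranges overlapped slightly in both sexes. The log2 fold change was 0.24 (SE 0.040, adjusted p = 0.00129) jointly, 0.29 in males and 0.20 in females. The female value was 0.28 without the supplemented rats with high numbers and 0.12 (adjusted p = 0.214) without those with low numbers. Agfg2 shares part of its locus with Irs3 in the RefSeq annotation, and reads from overlapping genes may not be separable.

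Auts2, a regulator of transcription and the cytoskeleton in developing neurons, rose by 0.26 on the log2 scale jointly (SE 0.045, adjusted p = 0.00151), with 0.20 in males and 0.31 in females. Its female levels were 33.0, 37.5 and 41.9 CPM without and 40.3, 46.1 and 55.9 CPM with added choline. Cfap70, a component of the ciliary axoneme, rose by 0.37 (SE 0.065, adjusted p = 0.00218), with 0.24 in males and 0.49 in females. In males Cfap70 was at 21.3, 28.0 and 30.4 CPM without and 29.6, 31.9 and 37.1 CPM with added choline. Serpinh1, a chaperone of collagen, rose by 0.22 jointly (SE 0.045, adjusted p = 0.00866), with values of 0.18 in males and 0.25 in females. These genes had the same sign in all 4 strata of sex and iron diet. None of the 3 had a choline by batch difference at an adjusted p under 0.05 in edgeR (0.498 for Auts2, 0.255 for Cfap70, 0.674 for Serpinh1), which does not show that the sexes responded alike.

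The hippocampal neuropeptide gene Pdyn, the precursor of the dynorphin opioids that granule cells of the dentate gyrus store in their mossy fibres, differed clearly in females. It was at 48.9, 62.3 and 73.2 CPM in the 8 females without added choline and at 157, 164 and 236 CPM in the 8 supplemented females. The 2 sets of females did not overlap, and both iron diets showed the difference, with log2 fold changes of 1.49 in iron-sufficient and 1.63 in formerly iron-deficient females. In males Pdyn was at 43.7, 65.6 and 100 CPM without and 52.9, 71.3 and 99.0 CPM with added choline, and these ranges overlapped almost completely. The log2 fold change was 1.56 (SE 0.10) in females with an adjusted p of 7.89e-08, and 0.12 (SE 0.16) in males with an adjusted p of 0.827. The female value was 1.35 without the supplemented rats with high numbers and 1.75 without those with low numbers. The sexes differed by 1.44 (SE 0.21, adjusted p = 5.23e-05 in edgeR), and the joint value of 0.90 averages them.

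Dsp encodes desmoplakin, a protein of desmosomes whose transcript marks dentate granule cells in rodents. It was at 1.39, 1.81 and 2.28 CPM in the females without added choline and at 10.3, 12.7 and 18.6 CPM in the supplemented females. The female groups were far apart, with a log2 fold change of 2.91 (SE 0.13, adjusted p = 3.15e-10), and again both iron diets showed it (2.87 and 2.95). It was 3.01 without the supplemented females with high numbers and 2.83 without those with low numbers. In males Dsp was at 3.01, 6.38 and 8.02 CPM without and 1.05, 7.46 and 11.1 CPM with added choline. The 3 lowest supplemented males were the 3 differently named libraries, at 1.55, 1.05 and 2.20 CPM, and the other 5 supplemented males were at 7.11 to 11.1 CPM. The male log2 fold change was 0.04 (SE 0.34) with them and 0.55 without them (adjusted p = 0.301). The difference between the sexes stayed past the threshold without them, with an adjusted p of 2.95e-07.

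Sncg, which encodes gamma-synuclein, varied widely between rats. In females it was at 3.14, 4.09 and 5.76 CPM without and 7.08, 59.7 and 84.3 CPM with added choline. The lowest supplemented female was IDch replicate 4, at 7.08 CPM, and the next was at 37.9 CPM. In males both diets held low and high rats, with 4 of the 8 rats without added choline at 2.43 to 3.53 CPM and 4 at 19.5 to 35.3 CPM. Among the supplemented males the 3 differently named libraries were at 3.69, 4.18 and 3.30 CPM and the other 5 at 25.9 to 56.4 CPM. The log2 fold change was 3.67 (SE 0.36, adjusted p = 6.79e-06) in females and 0.94 (SE 0.59, adjusted p = 0.546) in males. Without the 3 libraries the male value was 1.52 (adjusted p = 0.309) and the joint value moved from 2.38 to 2.76. The difference between the sexes was 2.72 (adjusted p = 0.0231) with them and 2.15 (adjusted p = 0.0725) without them, and 2.42 (adjusted p = 0.0698) without the supplemented females with high numbers.

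**Figure D2:**
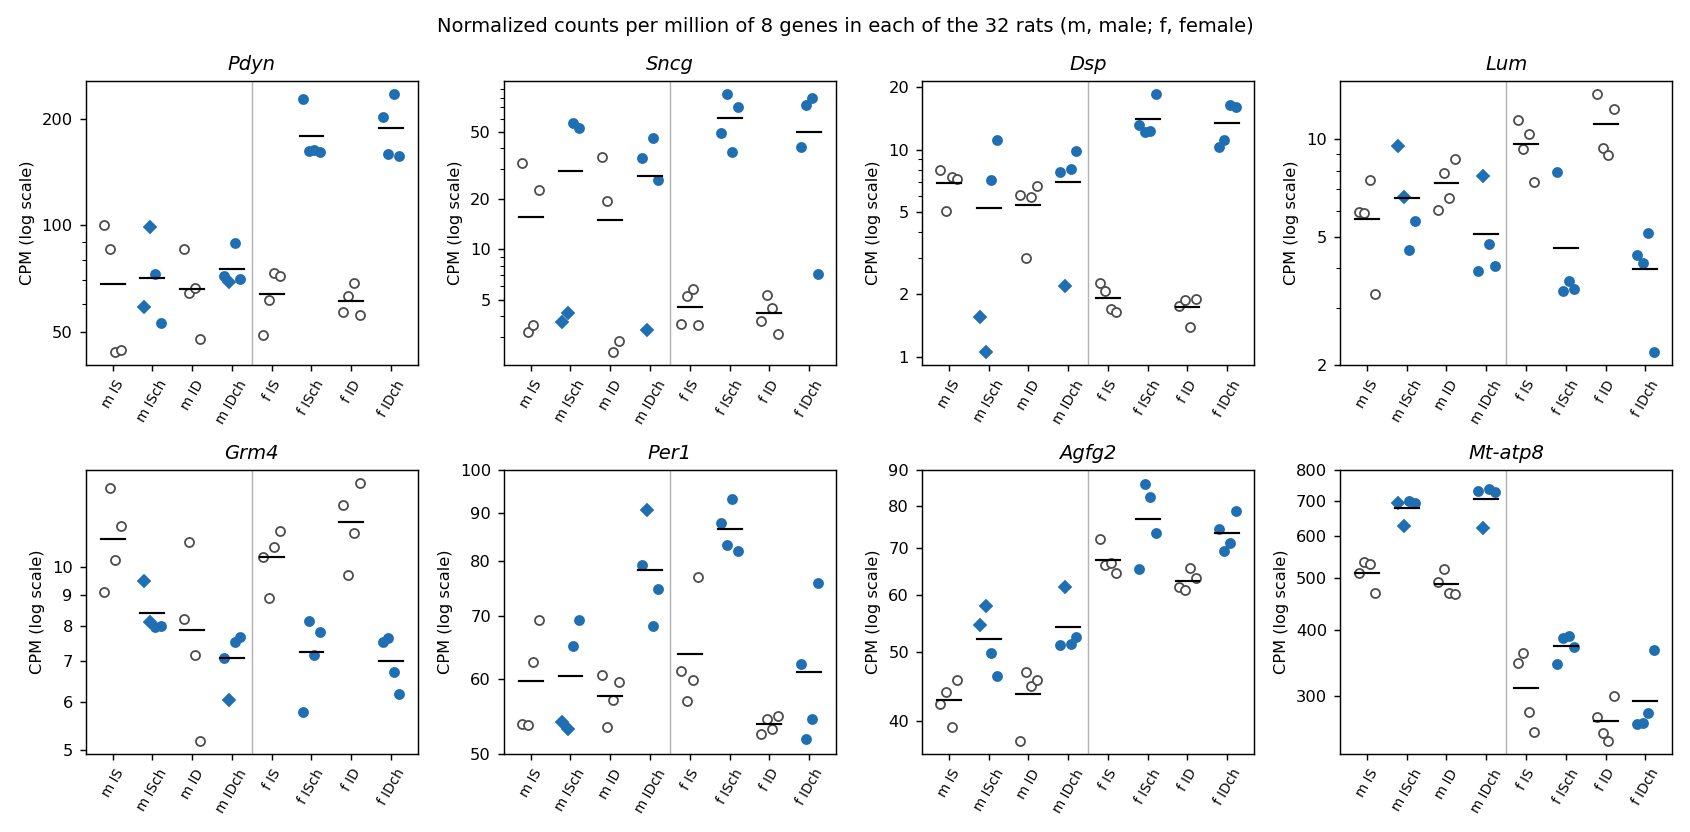
Normalized CPM (log scale) of 8 genes in each of the 32 rats by group, with open points for rats without and filled points for rats with added choline, bars at the group means and diamonds for the 3 differently named male libraries. Pdyn and Dsp separated the diets in females (m, male; f, female), while the male groups overlapped.

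Of the other genes that rose, Gsta4, a glutathione transferase that clears products of lipid peroxidation, was at 7.55, 8.35 and 11 CPM in females without and 14.0, 15.6 and 16.5 CPM in females with added choline. Its log2 fold change was 0.82 in females and 0.13 in males, and the sexes differed by 0.68 (adjusted p = 0.0363). Without the 3 male libraries the difference was 0.72 with an adjusted p of 0.0775. Ddo, the oxidase of D-aspartate, rose in females by 0.54 without overlap, from 14.7, 16.6 and 19.0 CPM to 19.6, 24 and 30.6 CPM, and was at 0.17 in males. Cfp, the complement regulator properdin, rose by 0.76 in females and was at 0.18 in males, and its difference between the sexes went from 0.58 (adjusted p = 0.0443) to 0.52 (adjusted p = 0.153) without the 3 male libraries. Rpl12, a protein of the large ribosomal subunit, rose by 0.23 in males and by 0.43 in females.

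Per1, a component of the circadian clock, was the only one of the 16 tested clock genes called in the joint fit (5.43% of all genes were). It rose by 0.28 (SE 0.075, adjusted p = 0.0451), with 0.23 in males and 0.31 in females. Males were at 53.4, 58.3 and 69.3 CPM without and 53.2, 68.9 and 90.7 CPM with added choline. Females were at 52.5, 55.9 and 76.9 CPM and at 51.9, 79.0 and 93.2 CPM. The joint value of Per1 was 0.19, no longer called, without the supplemented females with low numbers. The ranges overlapped in both sexes, and the time of day at which each rat was killed is not given in the sources used here. Egr2, an immediate early transcription factor, rose by 0.62 jointly (adjusted p = 0.0874). It was the only one of 19 immediate early genes at the criterion in the joint fit, where 5.43% of all genes were. Without the 3 male libraries 4 of the 19 were, and without the supplemented females with high numbers 5 were (6.32% of all genes).

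Among the genes that fell, Grm4, a presynaptic metabotropic glutamate receptor, was lower in both sexes. Females were at 8.90, 11.1 and 13.8 CPM without and 5.78, 7.36 and 8.17 CPM with added choline, with no overlap. Males were at 5.17, 9.70 and 13.5 CPM and at 6.05, 7.83 and 9.51 CPM, with a wide overlap. The joint log2 fold change was -0.49 (SE 0.092, adjusted p = 0.0038), from -0.28 in males and -0.64 in females. Kiss1r, the receptor of kisspeptin, fell by 0.47 jointly (SE 0.088, adjusted p = 0.0038), with -0.34 in males and -0.57 in females. Its levels were low, at 2.23 to 3.33 CPM in females without and 1.47 to 2.26 CPM in females with added choline.

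Phgdh, the first enzyme of serine synthesis from glucose, fell by 0.26 jointly (SE 0.057, adjusted p = 0.0114), with -0.20 in males and -0.32 in females. It was at 65.9, 79.9 and 89.3 CPM in males without and 53.7, 70.4 and 82.2 CPM in males with added choline. Tomm70, a receptor for protein import into mitochondria, fell by 0.23 (SE 0.044, adjusted p = 0.00616) and Thoc3, part of the mRNA export machinery, fell by 0.22 (SE 0.041, adjusted p = 0.00332). Borcs5, which helps to position lysosomes, fell by 0.25, with -0.11 in males and -0.36 in females, and overlaps Mansc1 in the annotation. Rbm11, a splicing factor, fell by 0.28, with -0.21 in males and -0.34 in females.

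Lum encodes lumican, a small proteoglycan of the extracellular matrix. It was at 7.38, 9.88 and 13.8 CPM in females without and 2.20, 3.89 and 7.90 CPM in females with added choline. The overlap came from 1 supplemented rat, ISch replicate 1, at 7.90 CPM, and the other 7 were at 2.20 to 5.12 CPM. The log2 fold change was -1.28 (SE 0.19, adjusted p = 0.000527) in females and -0.18 (SE 0.19, adjusted p = 0.753) in males. Among the supplemented males the 3 differently named libraries were the highest, at 9.51, 6.62 and 7.70 CPM. Without them the male value was -0.50 (adjusted p = 0.402), and the adjusted p for the difference between the sexes went from 0.0187 to 0.154. The female value was -1.70 without the supplemented rats with high numbers and -0.95 without those with low numbers, and in the latter case the difference between the sexes had an adjusted p of 0.137.

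Lyz2, the lysozyme of macrophages and microglia, fell by 0.58 in females, from 26.6, 31.5 and 35.8 CPM to 16.7, 20.7 and 25.7 CPM, and was at -0.19 in males. Pxmp4, a peroxisomal membrane protein, fell by 0.80 in females and was at -0.04 in males. Sla, a Src-like adaptor that overlaps the gene Tg, fell by 0.95 in females and was at -0.15 in males. Rhbdl3, a rhomboid-like membrane protein, fell by 0.46 in females and was at -0.09 in males. For Pxmp4, Sla and Rhbdl3 the sexes differed in edgeR, by -0.76, -0.78 and -0.37 (adjusted p of 0.00323, 0.0333 and 0.0352). Without the 3 male libraries these differences were -0.72, -0.94 and -0.37 (adjusted p of 0.0208, 0.0326 and 0.0822).

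**Figure D3:**
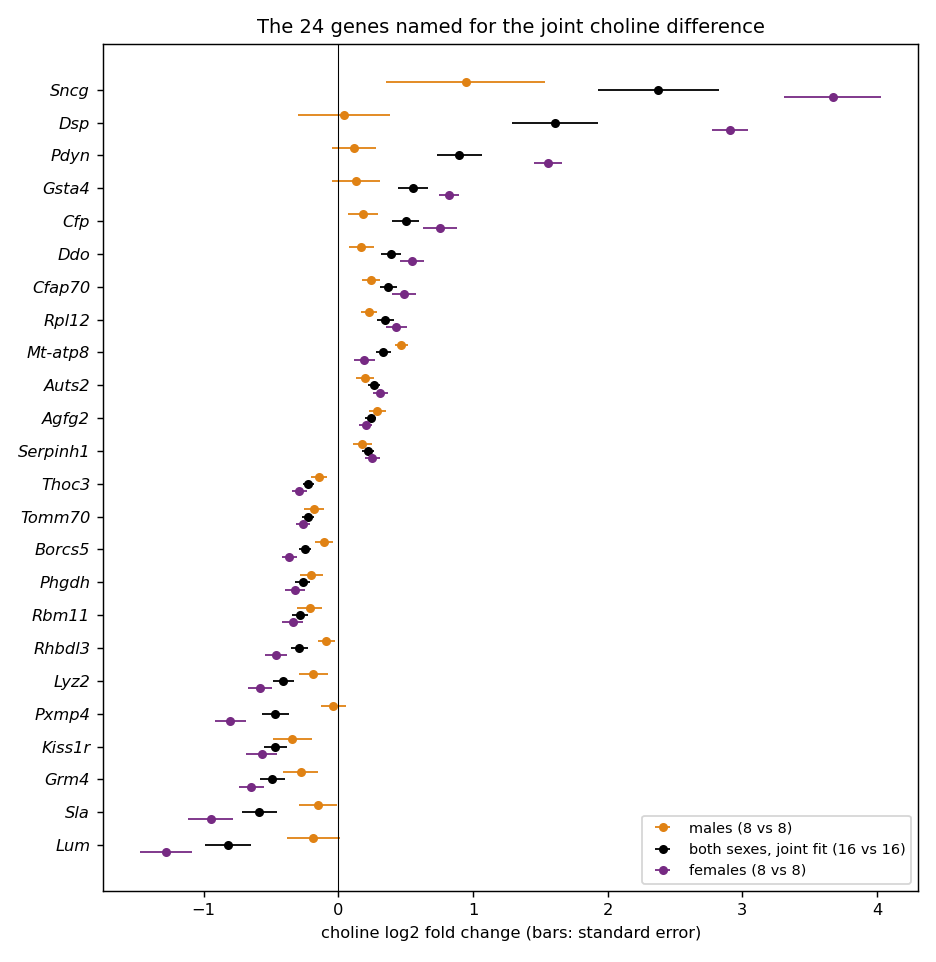
Choline log2 fold change with its standard error for the 24 genes named from the joint fit, in males (orange), in both sexes (black) and in females (purple). Agfg2, Auts2 and Serpinh1 lay close together in the 3 fits, while Sncg, Dsp, Pdyn and Lum lay near 0 or with wide errors in males and far from 0 in females.

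Among genes with opposite signs and a symbol held by 1 entry, Giot1, Ccdc82, Fbln2 and Scube1 had the smallest p for a difference between the sexes. Giot1, a zinc finger protein, was at 2.73, 3.20 and 3.37 CPM in females without and 4.60, 6.02 and 7.24 CPM in females with added choline. In males it was at 3.24, 4.50 and 5.08 CPM without and 2.20, 3.04 and 3.25 CPM with added choline. The female groups did not overlap and the male groups nearly did not, in the opposite order. Its log2 fold change was 0.91 in females and -0.56 in males, a difference of 1.48 (SE 0.15, adjusted p = 1.46e-07).

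Fbln2, the matrix glycoprotein fibulin-2, fell from 41.2, 47.6 and 51.6 CPM to 24.4, 26.6 and 36.6 CPM in females, a log2 fold change of -0.71. In males it was at 21.5, 26.7 and 44.1 CPM without and 28.8, 38.6 and 48.3 CPM with added choline, a value of 0.47 that met the criterion. Scube1, a secreted glycoprotein, was at -0.76 in females and 0.41 in males. Ccdc82, a coiled-coil protein that overlaps Maml2, was at -0.61 in females and 0.31 in males. All 4 differences between the sexes stayed past an adjusted p of 0.05 without the 3 male libraries (3.06e-06 for Giot1, 0.000137 for Fbln2, 0.000114 for Scube1 and 5.61e-05 for Ccdc82), and also without either set of supplemented females. Averaged over both sexes, Giot1 was at 0.32 (unadjusted p = 0.0333 and adjusted p = 0.287 in edgeR), Scube1 at -0.24, Ccdc82 at -0.20 and Fbln2 at -0.19 (adjusted p = 0.519). Of the 4 only Giot1 was called in the joint fit, despite its opposite signs in the sexes.

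Between the iron diets the genes with the smallest p were Chst15, Fn3k, Ppp1cb and Cntn4, each with an adjusted p of 0.112 in edgeR. Chst15, a sulfotransferase for chondroitin sulfate, had a choline log2 fold change of 0.37 in iron-sufficient males and 0.30 in iron-sufficient females, and of -0.24 and -0.11 in the formerly iron-deficient ones. Cntn4, an axonal adhesion molecule, was at 0.06 and 0.09 in iron-sufficient and -0.40 and -0.33 in formerly iron-deficient males and females. Ppp1cb, a catalytic subunit of protein phosphatase, was at 0.04 and 0.09 against -0.28 and -0.12. Fn3k, a kinase that repairs glycated proteins, was at -0.09 and -0.39 against 0.20 and 0.09.

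The enzymes and transporters that handle choline itself held 2 calls in the joint fit. Of 27 tested genes of choline transport and phosphatidylcholine synthesis none rose and 2 fell at the criterion, where 2.84% and 2.59% of all genes did. Their median log2 fold change was -0.01 against -0.0017 over all genes. In females 1 rose and 3 fell of the 27 (Aldh7a1 at 0.25, Flvcr2 at -0.40, Pemt at -0.35 and Etnk2 at -0.34), where 5.39% and 6.47% of all genes did. Of the 27, 4 had an adjusted p under 0.05 in females, where 8.67% of all genes did. In males none met the criterion. The 2 joint calls were Pemt, which makes phosphatidylcholine by methylating phosphatidylethanolamine, and Flvcr2, a choline transporter of the blood-brain barrier. Pemt was at 2.77, 3.22 and 4.37 CPM in females without and 2.28, 2.72 and 3.10 CPM in females with added choline, and these ranges overlapped. Its log2 fold change was -0.24 jointly (adjusted p = 0.168), -0.35 in females (adjusted p = 0.0376) and -0.10 in males (adjusted p = 0.86). Flvcr2 was at -0.21 jointly (adjusted p = 0.284), with 0.02 in males and -0.40 in females. The choline transporter Slc44a1, the choline kinase Chka, the next enzyme of the pathway, Pcyt1a, and the choline dehydrogenase Chdh were at -0.01, 0.06, 0.01 and -0.02. Chka was at 0.20 in females (adjusted p = 0.0244), not past the fold limit, and at -0.10 in males.

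In the methionine and folate cycle, which carries the methyl groups, 1 of 26 tested genes rose and 1 fell in the joint fit. Among all genes 2.84% rose and 2.59% fell. Cth, an enzyme of transsulfuration, rose by 0.23 (adjusted p = 0.292) and Nnmt, which spends S-adenosylmethionine on nicotinamide, fell by 0.33 (adjusted p = 0.181). Mat2a, which makes S-adenosylmethionine in the brain, was at 0.02. None of the 14 tested genes of DNA methylation and none of the 19 tested H3K9 methylation enzymes and readers met the criterion in the joint fit, and none did in either sex alone. The exception was 2 of the 14 DNA methylation genes, which fell in females when those with high numbers were left out, where 9.81% of all genes fell. Dnmt3a, a de novo DNA methyltransferase, was at 0.20 in males and -0.11 in females (adjusted p of 0.509 and 0.428). Tet1, which oxidizes methylcytosine, was at 0.10 and -0.15, and the H3K9 methyltransferase gene Ehmt2 at 0.10 and -0.03. Without the 3 male libraries 1 of the 19 H3K9 genes met the criterion in males.

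Some receptors for acetylcholine had lower values in supplemented females. Of 15 tested cholinergic genes 5 fell and none rose in females, where 6.47% of all genes fell, and the median log2 fold change of the 15 was -0.19. They were the nicotinic subunits Chrna4 (-0.55), Chrna5 (-0.52), Chrnb4 (-0.71) and Chrna2 (-0.42) and the muscarinic receptor Chrm2 (-0.42). Of the 5 only Chrna4 had an adjusted p under 0.05, at 0.019. Without the supplemented females with high numbers 8 of the 15 fell (9.81% of all genes) and 5 had an adjusted p under 0.05, and without those with low numbers 2 of 16 fell (5.58% of all genes) and Chrna4 had an adjusted p of 0.1. It was at 14.3, 23.4 and 31.2 CPM in females without and 10.9, 15.6 and 20.4 CPM in females with added choline, with overlap. In males none of the 15 met the criterion and the median was 0.01. Chrna4 was at -0.03 in males, and the test of its difference between the sexes gave an adjusted p of 0.0708. In the joint fit Chrna4 (-0.32, adjusted p = 0.0878) and Chrm2 (-0.24, adjusted p = 0.335) were called, and Chrm2 lost its call in many of the alternatives tried. Chrna4 overlaps Col20a1 in the annotation.

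Of 22 tested glutamate receptor genes 1 rose and 4 fell in the joint fit, where 2.84% and 2.59% of all genes did. The count of 5 was 3 in 6 of the 32 fits that left out 1 library, all 6 of them without a female. It was 4 without the supplemented females with high numbers (6.32% of all genes) and 2 without those with low numbers (4.19%). Grm2, a presynaptic metabotropic receptor, rose by 0.21 (adjusted p = 0.0873). Besides Grm4, the metabotropic receptor Grm8 fell by 0.53 (SE 0.14, adjusted p = 0.0352), the kainate receptor subunit Grik3 by 0.22 and the NMDA receptor subunit Grin3a by 0.29. Grm8 was at 4.61, 7.25 and 10.7 CPM in females without and 2.72, 3.51 and 5.65 CPM in females with added choline, so that the ranges overlapped little. In males it was at -0.12. Without either set of supplemented females Grm8 had a joint adjusted p over 0.05 (0.17 and 0.116). Of the 18 tested opioid and dopamine genes Pdyn rose in the joint fit, and Oprk1, the receptor of dynorphin, and Pomc fell. Among all genes 2.84% rose and 2.59% fell. Oprk1 was low, at 0.622 to 1.52 CPM in females without and 0.404 to 1.27 CPM in females with added choline (joint -0.33, adjusted p = 0.287). Pomc rested on 1 rat, female IS replicate 3. The other 31 rats were at 0.104 to 2.65 CPM, and its joint value of -2.61 became -0.33, no longer called, without that rat.

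Beside Dsp and Pdyn, the other markers of dentate granule cells were higher in supplemented females. All 5 tested markers rose in females, where 5.39% of all genes rose, and each of the 5 had an adjusted p under 0.05. Prox1, the transcription factor that sets granule cell identity, was at 115, 121 and 140 CPM without and 146, 161 and 187 CPM with added choline in females, with no overlap and a log2 fold change of 0.39 (SE 0.046, adjusted p = 5.43e-05). C1ql2, a secreted synaptic protein of mossy fibres, was at 0.36, the calcium-binding protein gene Calb1 at 0.30 and the channel gene Trpc6 at 0.28. Without the supplemented females with high numbers all 5 rose (7.96% of all genes), and without those with low numbers 3 of the 5 did (5.13%), while Calb1 (0.20) and Trpc6 (0.17) were not called. Summed over the 7 markers in the table the females were at 300 to 347 CPM without and 384 to 474 CPM with added choline. The males were at 302 to 373 CPM and 314 to 345 CPM, and none of the 5 rose in them while Calb1 fell by 0.23. Without the 3 differently named libraries 1 of the 5 rose and none fell in males. Markers of CA1 and of CA2 and CA3 did not meet the criterion in either sex. With the high-numbered supplemented rats left out 2 of the 4 tested CA1 markers rose in females (7.96% of all genes) and 2 of 5 CA2 and CA3 markers fell (9.81%). Without those with low numbers 3 CA1 markers fell (5.58% of all genes), and of the CA2 and CA3 markers 2 rose (5.13%) and 1 fell. In females CA1 markers summed to 723 to 1044 CPM without and 514 to 1145 CPM with added choline, CA2 and CA3 markers to 400 to 450 CPM and 362 to 426 CPM, and excitatory neuron markers to 5623 to 6585 CPM and 5503 to 6462 CPM. The part of tissue composition or dissection in the dentate gyrus values was not tested.

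A few microglial markers were called in each sex, in opposite directions. Of 11 tested, 3 fell in females (P2ry12, Cx3cr1 and Tyrobp, at -0.30, -0.28 and -0.24), where 6.47% of all genes fell. In males 2 rose (C1qa and C1qc, at 0.21 and 0.30), where 3.49% of all genes rose. None of the 11 differed between the sexes at an adjusted p under 0.05. Without the 3 differently named libraries none of the 11 was called in males. Their summed level was 356 to 394 CPM in females without and 319 to 361 CPM in females with added choline. The receptor P2ry12 was the only one of the 11 called in the joint fit (5.43% of all genes were), at -0.27 (adjusted p = 0.168). In males P2ry12 was at 10.9, 10.5 and 8.52 CPM in the 3 differently named libraries and at 17.5 to 26.3 CPM in the other 5 supplemented rats, and without these libraries its joint value was -0.14 and no longer called. No marker of astrocytes, oligodendrocytes, endothelium, interneurons or blood met the criterion in the joint fit with all 32 libraries. In females all 4 tested blood markers rose without the supplemented rats with high numbers (7.96% of all genes), and 1 fell without those with low numbers (5.58% of all genes).

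Of 5 tested choroid plexus markers 3 fell in the joint fit, where 2.59% of all genes fell. They were Ttr, Clic6 and Aqp1, at -2.41, -1.32 and -1.21 with adjusted p of 0.0775, 0.143 and 0.134. Ttr, the transthyretin of the choroid plexus epithelium, was at 342 CPM in male ID replicate 4, at 14.7 CPM in female ID replicate 3 and at 0 to 13.8 CPM in the other 30 rats. Without male ID replicate 4 the values were -1.16, -0.62 and -0.77, still at the criterion. In the 16 fits that left out 1 female library Clic6 and Aqp1 were below the filter on low counts, and Ttr alone was called.

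Transcripts encoded by the mitochondrial genome differed in males. Of 13 tested, 8 fell and 1 rose in males, where 2.8% of all genes fell, with a median of -0.24. In females none met the criterion and the median was -0.02. Without the supplemented rats with high numbers 2 rose (7.96% of all genes), and without those with low numbers 2 fell (5.58%). At an adjusted p under 0.05 the female fit had none of the 13 (8.67% of all genes). It had 2 without the high-numbered (13.7%) and 6 without the low-numbered supplemented rats (4.66%). Of the 13, 2 (Mt-atp6 and Mt-co3) differed between the sexes at an adjusted p under 0.05 in edgeR, where 6.08% of all genes did. Without the 3 differently named libraries neither did (0.155 and 0.115). In the joint fit 1 of the 13 rose, 1 fell and 3 had an adjusted p under 0.05 (1.55% of all genes). Without the supplemented females with high numbers 1 had (1.5%), and without those with low numbers 8 had (0.833%). The summed level of the 13 was 65546 to 75201 CPM in males without and 56200 to 66489 CPM in males with added choline, and 71302 to 81047 CPM and 66560 to 84420 CPM in females. Mt-nd2, a subunit of complex I, had the largest drop, with 7558, 8171 and 8733 CPM against 4838, 5468 and 7866 CPM in males and a log2 fold change of -0.43 (SE 0.087, adjusted p = 0.0166). The low values were those of all 4 ISch males, at 4838 to 5622 CPM, and of IDch replicate 2, at 5064 CPM. Without the 3 differently named libraries 7 of the 13 fell in males with a median of -0.20, and the joint value of Mt-nd2 moved from -0.27 to -0.19, within the fold limit. In males 7 of the 13 had an adjusted p under 0.05 with these libraries and 2 without them.

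Mt-atp8, a subunit of the ATP synthase whose reading frame overlaps that of Mt-atp6, went the other way. It was at 468, 503 and 536 CPM in males without and 623, 697 and 735 CPM in males with added choline, with no overlap and a log2 fold change of 0.47 (SE 0.046, adjusted p = 5.91e-06). In females it was at 247, 277 and 362 CPM and at 266, 355 and 389 CPM, a value of 0.19 with an adjusted p of 0.125. The female value was 0.34 (adjusted p = 0.0121) without the supplemented rats with high numbers and 0.05 (adjusted p = 0.781) without those with low numbers. Mt-atp6 was at -0.23 in males and 0.04 in females. Ribosomal protein genes had members on both sides, with 13 of 74 tested rising and 8 falling in males, where 3.49% and 2.8% of all genes did, and 5 of 80 rising and 3 falling in females, where 5.39% and 6.47% did. Many have near-identical copies, so that reads may have been split between entries.

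**Figure D4:**
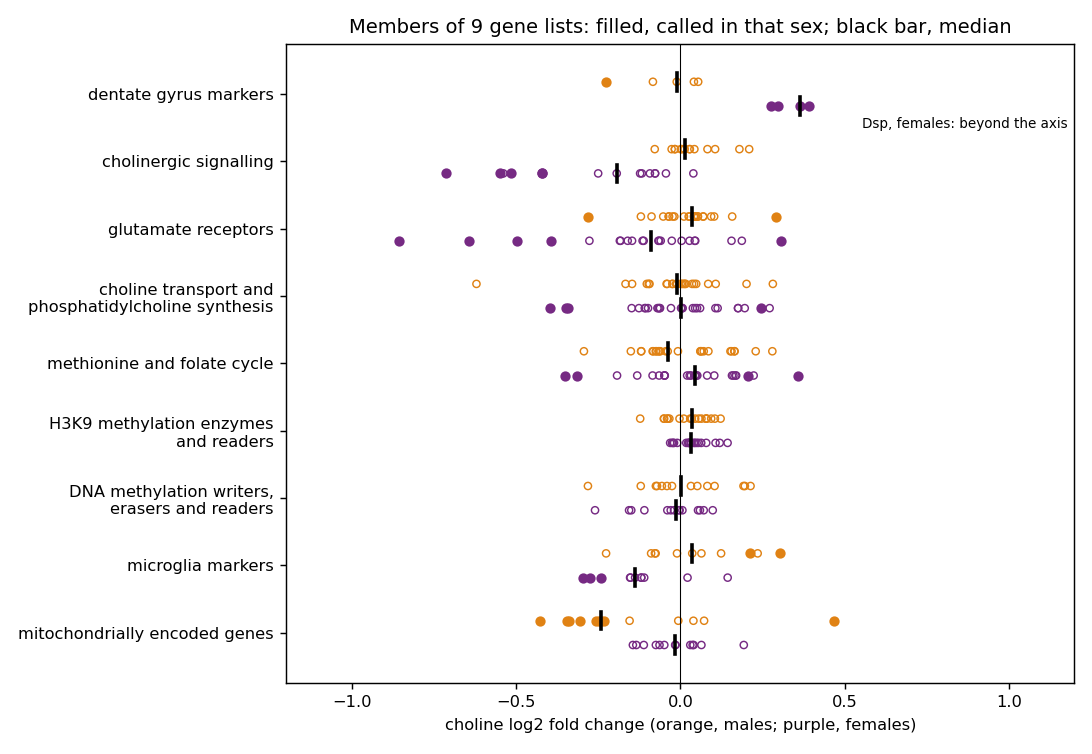
Choline log2 fold change of the tested members of 9 gene lists in males (orange) and females (purple). Filled points met the criterion in that sex, black bars are medians, and Dsp in females, at 2.91, lies beyond the axis. All 5 dentate gyrus markers rose in females and none in males, and 8 of 13 mitochondrially encoded genes fell in males and none in females.

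Heat shock protein genes held 1 joint call of 17 tested, Hspb1, a small chaperone, at 0.42 (SE 0.12, adjusted p = 0.0594), with 0.57 in males and 0.34 in females. Without the 3 differently named libraries it was at 0.28 in males (adjusted p = 0.756 in edgeR) and 0.33 jointly (adjusted p = 0.109). Of all genes tested in the joint fit 5.43% were called. None of the tested genes of GABA receptors, netrin signalling, sphingosine-1-phosphate signalling, iron homeostasis or the Clk and SR splicing factors met the criterion in the joint fit. In the joint fit that left out the supplemented females with high numbers 3 of the 14 tested GABA receptor genes fell, where 2.98% of all genes did. Cybrd1, a ferric reductase, rose by 0.59 in females and fell by 0.70 in males, and the iron-handling genes Cp and Tf rose by 0.22 and 0.21 in females. Among 92 tested nuclear-encoded subunits of the respiratory chain 1 met the criterion in the joint fit, where 5.43% of all genes did. Striatal and thalamic markers had no joint call.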

How the data were processed

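RNA was sequenced from 32 hippocampi. Per the labels and the study's methods, the authors trimmed reads with Trimmomatic, aligned them with HISAT2 to Rnor_6.0 and counted reads per gene with featureCounts, and they deposited raw counts in 1 table per batch (32883 entries each). Whether counting used strand is not given in the sources used here. The tables were joined by identifier.

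Counts were fitted with edgeR 4.0.16 (R 4.3.3, TMM, filterByExpr with the design, quasi-likelihood test, Benjamini-Hochberg adjustment over all genes tested) with batch, iron and choline as terms, in each sex with iron and choline, and with added choline by batch or choline by iron terms. Strata of 4 against 4 rats came from a model of 8 group means. The criterion was the study's (absolute log2 fold change over 0.2, p under 0.05). CPM were TMM-normalized. The scripts were tested on simulated data. Replicates differed beyond sampling noise (chi-square per gene of 2.02 to 25.2 over 48 pairs). The rats of a group are the replicates. The limit of 3 counts covers counting error only.

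The gene lists and the members were chosen with earlier results of these data known. Genes were named by rank of p: the 12 higher and 12 lower of the joint fit with 1 sign in both sexes, 4 by batch, 4 by iron, up to 4 called members per list and a set of choline and methylation genes, of which 1 is not reported here. Only genes whose symbol stands for 1 entry were eligible, and Grin3a, Chrna5, Chrnb4, Chrna2 and the members of lists named for 1 sex were added after their values were seen. RefSeq (assembly GRCr8) gave overlaps for 61 of 64 such genes. Alternatives were DESeq2 1.42.0, the likelihood ratio test, other scalings and filters, thinned female counts, a replicate block, 8 group means, and leaving libraries out.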

Additional observations from a re-analysis of the deposited data

Results flagged for a closer look

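Among 352 sets of 4 rats of 1 group, 23 held a rat far from the other 3 by Dixon's test, and chance gives about 1 in 20. Several of these were the libraries already set apart. Male ID replicate 4 had 431 CPM of choroid plexus markers. Male IDch replicate 2 was highest for Agfg2 (61.6 CPM) and lowest for Mt-atp8 (623 CPM) and for the summed mitochondrially encoded genes (56200 CPM), male ISch replicate 2 was lowest for Mt-atp8 (627 CPM), and male ISch replicate 1 was highest for Grm4 (9.51 CPM), Kiss1r (3.21 CPM) and Pxmp4 (16.4 CPM). Female ISch replicate 1 was highest for Lum (7.90 CPM), Pdyn (229 CPM) and Pxmp4 (17.1 CPM), on the side of the unsupplemented rats for Lum and Pxmp4. Female IDch replicate 4 was highest for Fbln2 (31.0 CPM), Mt-atp8 (366 CPM) and the summed blood markers (320 CPM).

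The other single rats were the highest of their groups: male IDch replicate 1 for Auts2 (45.1 CPM) and CA1 markers (777 CPM), male IDch replicate 3 for Pdyn (89.0 CPM), male IDch replicate 4 for Cfp (14.4 CPM), male IS replicate 4 for Fbln2 (44.1 CPM), female IDch replicate 3 for Ccdc82 (18.7 CPM), female ISch replicate 4 for Dsp (18.6 CPM), female ID replicate 1 for Sla (4.46 CPM) and female ID replicate 3 for choroid plexus markers (21 CPM).

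The choline difference differed between the sexes at an adjusted p under 0.05 for 922 genes. Among the named genes, the female minus the male log2 fold change was 2.87 for Dsp, 2.72 for Sncg, 1.48 for Giot1, 1.44 for Pdyn, 0.68 for Gsta4, 0.58 for Cfp and 0.38 for Rps10. It was -1.19 for Fbln2, -1.17 for Scube1, -1.10 for Lum, -0.93 for Ccdc82, -0.78 for Sla, -0.76 for Pxmp4 and -0.37 for Rhbdl3. Without the 3 differently named male libraries 6 of these 14 had an adjusted p over 0.05: Sncg (2.15, adjusted p = 0.0725), Gsta4 (0.72, 0.0775), Cfp (0.52, 0.153), Rps10 (0.28, 0.191), Lum (-0.78, 0.154) and Rhbdl3 (-0.37, 0.0822). Without the supplemented females with high numbers Sncg (0.0698), Gsta4 (0.0786) and Sla (0.129) were over that threshold, and without those with low numbers Gsta4 (0.0617), Cfp (0.255), Rps10 (0.272), Lum (0.137) and Rhbdl3 (0.338) were. Sex and batch cannot be told apart in these values.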

How the results depend on the processing

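For the named genes, 2758 of 2884 values under the alternatives kept their direction and side of the threshold, 100 lost the call and 26 changed sign. The cause of the changes below was not tested. Genes at an adjusted p under 0.05 in the joint fit numbered 412 with 8 group means, 392 in DESeq2, 382 in the likelihood ratio test, 131 with female counts thinned, 448 without the 3 differently named male libraries and 438 without these and male ID replicate 4 (an alternative chosen after seeing the data), and 132 to 348 when 1 library was left out. In the males they were 181 in DESeq2, 200 in the likelihood ratio test, 59 and 52 without the 3 and the 4 libraries and 76 to 152 with 1 left out. In the females they were 798 with thinned counts and 911 to 1589 with 1 left out. The choline by batch calls were 336 and 293 without the 3 and the 4 libraries and 707 to 1065 with 1 left out. The choline by iron calls were 12 in DESeq2, 9 in the likelihood ratio test and 0 to 2 with 1 left out. At the criterion, testing all genes with a count gave 1559 joint, 1370 male and 1561 by-iron calls, and dropping the fold limit gave 2234 joint, 1734 male and 3481 female calls. The share of genes with 1 sign in both sexes was 46.1% with all genes, 48.9% without the 3 and 48.2% without the 4 libraries, and 43.0% to 46.2% with 1 left out. For genes called in females it was 40.1%, 46.7%, 45.7% and 34.1% to 39.9%. For genes called in males it was 48.3% and 45.2% without the 3 and the 4 libraries and 35.5% to 42.7% with 1 left out. For joint calls it was 82.2% with all genes and 73.6% to 80.5% with 1 left out, and 36.8% of joint calls had 1 sign in all 4 strata with all genes. Among genes near 0, Chdh was at 0.00 with 8 group means and 0.11 with thinned counts, Pcyt1a at -0.01 with thinned counts and without the 3 or the 4 libraries, Slc44a1 at 0.00 with library size alone and Tet1 at 0.03 with thinned counts. With 1 library left out Chdh ran from -0.06 to 0.03, Dnmt3a from -0.01 to 0.06, Pcyt1a from 0.00 to 0.02, Slc44a1 from -0.02 to -0.00 and Tet1 from -0.09 to 0.01. Leaving out the supplemented females with high numbers gave 2051 female genes at an adjusted p under 0.05 and 2650 at the criterion, 2 by-iron calls, 53 called members of the gene lists and 85.3% of joint calls with 1 sign in both sexes, and put Pcyt1a at -0.01 and Slc44a1 at 0.03. Leaving out those with low numbers gave 122 joint, 702 female, 528 by-batch and 13 by-iron genes at an adjusted p under 0.05, with 1 sign in both sexes for 45.7% of all genes and 83.3% of joint calls, and put Chdh at 0.02 and Tet1 at 0.01. With a replicate block the joint fit had 148 genes at an adjusted p under 0.05. Within a sex, the deviations of same-numbered rats from their group means had correlations of -0.12 to 0.17. Whether same-numbered rats shared anything else is not given in the sources used here.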

Other observations

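A list of 15 meningeal and matrix genes was added after Lum had been seen, so its counts support nothing. Of 14 tested, 3 fell and 2 rose in females, where 6.47% and 5.39% of all genes did. In males 2 fell and 1 rose, where 2.8% and 3.49% of all genes did. Lum, Fbln2 and Bgn fell in females, at -1.28, -0.71 and -0.21, while Fmod, a proteoglycan of the same family as lumican, rose by 0.45 and Igf2 by 0.21. In males Igf2 was at -0.37 and Ptgds, a prostaglandin synthase abundant in the meninges, at -0.26, and both met the criterion.

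Bdnf, the neurotrophin of activity-dependent plasticity, rose by 0.43 in females and was at -0.18 in males. It was picked from the 19 immediate early genes after the values were seen. Of the 19, 4 rose and 1 fell in females, where 5.39% and 6.47% of all genes did. Without the supplemented females with high numbers 8 rose (7.96% of all genes) and 0 fell. When those with low numbers were left out 2 rose (5.13%) and 2 fell (5.58%). Of 11 tested netrin pathway genes, 3 fell in females, where 6.47% of all genes fell. They were Ntn1, Ntn3 and Ntng1, at -0.54, -0.28 and -0.24, and none of the 11 had an adjusted p under 0.05. Without the supplemented females with high numbers 4 fell, where 9.81% of all genes did, and 3 of the 11 had an adjusted p under 0.05. Without those with low numbers 1 fell and 1 rose, where 5.58% and 5.13% of all genes did. At an adjusted p under 0.05, 2 of the 11 differed between the sexes, as did 6.08% of all genes. None of the 11 met the criterion in males, where Ntn1 was at 0.24.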
